A study of Mus musculus with 4 samples.

Results

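The genes described here are 10 markers of macrophages that live in a tissue and often line its vessels, followed in macrophages sorted from mouse prostate tumours. They were taken by name from a table of 39179 genes, and all 10 were found: Lyve1, Cd163, Folr2, Timd4, Mrc1, F13a1, Selenop, Cbr2, Gas6 and Stab1. Tumours grew under the skin of FVB mice from a mouse prostate cancer line, MycCaP, or from MycCaP-BMP4 cells, which overexpress the bone morphogenetic protein BMP4, and macrophages carrying CD45, CD11b and F4/80 but not GR1 were sorted from each. Each group had 2 libraries of polyadenylated RNA. The labels do not give the vector that drives BMP4, whether MycCaP-BMP4 is a clone, the age or sex of the mice, or whether the samples came from separate mice. The spread behind each p-value is that of these samples alone, and it may be technical. The sample titles of MycCaP-BMP4 name F4/80 and those of MycCaP do not, so the gates may have differed.

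Many tissues hold macrophages that were seeded early and renew in place, beside others that come from blood monocytes. Those that hug vessels carry receptors that clear hyaluronan, haemoglobin, dead cells and mannose-bearing proteins, and they take up a good deal of material from plasma and matrix. In tumours, cells of this kind are known from the space around vessels, and FOLR2, LYVE1, CD163 and TIM-4 are commonly used to tell them from macrophages that arose recently from monocytes. No single gene of the set marks only these cells. LYVE1 and STAB1 are also made by lymphatic and sinusoidal endothelium, F13A1 by platelets and monocytes, and SELENOP mostly by liver.

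The libraries held 23058263 to 24967143 counts in genes, and 3 counts, the floor of detection used here, came to 0.120 to 0.130 CPM (counts per 1000000 counts in genes), for counting error only. Bmp4 had 4 and 1 counts in the MycCaP libraries and 14136 and 4138 counts in MycCaP-BMP4 replicates 1 and 2. A list of 18 pan-macrophage genes, such as Csf1r, C1qa and Lyz2, was low in MycCaP-BMP4 replicate 1: its geometric mean was 1159 and 1168 CPM in the MycCaP libraries, 283 CPM in MycCaP-BMP4 replicate 1 and 882 CPM in replicate 2. Tumour epithelial genes ran the other way, with a summed level of 112 and 145 CPM in MycCaP and 786 and 310 CPM in MycCaP-BMP4 (12 genes, of which 5 were too low to test, Epcam and Krt18 among them). Of the 5 sort marker genes with counts, 4 lay lower in both MycCaP-BMP4 libraries, beside 29.7% of all genes tested. Among the 4 were Adgre1 (F4/80), at 863 and 919 CPM against 146 and 638 CPM, and Ly6c2, at 4.77 and 4.39 CPM against 1.77 and 1.62 CPM. The fifth, Ly6c1, which encodes a protein related to the GR1 antigen Ly6G, had 3.67 and 6.24 CPM against 49.6 and 22.6 CPM (log2 fold change 2.86, edgeR adjusted p = 0.124, and 0.0123 when scaled on the pan-macrophage genes). Ly6g itself had no counts in any library. In bulk RNA, fewer macrophages and less of a transcript per macrophage cannot be told apart, so each marker is given below first as a level and then against the macrophage genes of the same library. CPM values are scaled between libraries with TMM factors, and pairs of values give replicates 1 and 2 in that order.

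A set of 4 promoter windows is printed because the markers fell into genes that lay high against the macrophage genes in MycCaP-BMP4 (Cd163 and Timd4 are shown) and genes that lay among them (Mrc1 and Stab1 are shown). Each is the 250 bases before a start site in RefSeq (GRCm38.p6), 5′ to 3′ on the strand of the gene. Capitals mark matches, on either strand, to the PU.1 core AGGAAGT, the MAF motif TGCTGA or the short SMAD motif CAGAC. PU.1 and MAF are transcription factors of macrophages, and SMAD proteins carry the BMP signal.
Cd163, chr6:124304401-124304650, + strand: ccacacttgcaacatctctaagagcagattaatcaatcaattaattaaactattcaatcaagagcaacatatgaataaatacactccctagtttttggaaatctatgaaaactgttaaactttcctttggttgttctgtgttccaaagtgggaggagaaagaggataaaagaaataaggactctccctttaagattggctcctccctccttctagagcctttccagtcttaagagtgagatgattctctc
Timd4, chr11:46810549-46810798, + strand: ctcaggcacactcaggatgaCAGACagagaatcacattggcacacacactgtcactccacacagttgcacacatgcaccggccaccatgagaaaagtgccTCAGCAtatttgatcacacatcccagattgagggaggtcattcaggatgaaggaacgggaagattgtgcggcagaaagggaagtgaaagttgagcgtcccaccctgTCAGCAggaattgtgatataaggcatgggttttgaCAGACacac
Mrc1, chr2:14229164-14229413, + strand: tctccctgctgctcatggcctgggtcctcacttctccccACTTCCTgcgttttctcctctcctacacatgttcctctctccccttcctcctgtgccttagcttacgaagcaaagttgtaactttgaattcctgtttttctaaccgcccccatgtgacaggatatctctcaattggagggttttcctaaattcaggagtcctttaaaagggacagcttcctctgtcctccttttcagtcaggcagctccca
Stab1, chr14:31168642-31168891, - strand: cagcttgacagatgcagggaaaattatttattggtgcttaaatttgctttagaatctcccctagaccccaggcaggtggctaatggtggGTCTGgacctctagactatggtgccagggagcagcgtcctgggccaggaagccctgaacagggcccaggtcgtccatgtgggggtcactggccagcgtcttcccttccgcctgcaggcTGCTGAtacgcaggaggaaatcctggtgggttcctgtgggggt

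RefSeq windows were found for 9 of the 10 markers, 13 windows in all, and for Lyve1 none was matched. The PU.1 core was in a window of 4 of the 9 genes (44.4%), namely Mrc1, Folr2, F13a1 and Selenop, in 4 of 13 pan-macrophage genes with a window (30.8%) and in 8.80% of 27025 genes. The longer PU.1 site GAGGAAGT, which contains that core, was in 1 of them, Selenop, and in 2.79% of genes. The MAF motif was in 3 of 9 (Folr2, Timd4 and Stab1) and 18% of genes, and the short SMAD motif in 5 of 9 and 45.8% of genes. The SMAD1/5 site GGCGCC and the SMAD box GTCTAGAC were in none of the 9, against 10.8% and 0.2% of genes. The Cd163 window and that of Cbr2 held no match to any of these 6 motifs. These are matches of letters only.

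All 10 markers were detected in every library, and all passed the filter on low counts. Per length of transcript, Selenop was the most abundant, and Lyve1, Timd4 and Cd163 were the 3 least abundant in each library. Selenop encodes selenoprotein P, a secreted carrier of selenium, and stood at 3748 ± 278 TPM (transcripts per 1000000, SD, n = 2) in MycCaP and 2677 ± 1497 TPM (SD, n = 2) in MycCaP-BMP4. The order in MycCaP went on with Mrc1 at 988 ± 78.7 TPM, F13a1 at 805 ± 21.6 TPM, Folr2 at 573 ± 22.9 TPM, Cbr2 at 562 ± 137 TPM, Stab1 at 530 ± 11.1 TPM and Gas6 at 506 ± 5.23 TPM (SD, n = 2 each). Cbr2 lay on both sides of Folr2 and of Stab1 and Gas6, so these neighbours did not differ beyond their spread. At the low end were Lyve1 at 100.2 ± 7.72 TPM, Timd4 at 56.5 ± 13.4 TPM and Cd163 at 28.4 ± 0.669 TPM (SD, n = 2 each). In both MycCaP-BMP4 libraries Cbr2 ranked next after Selenop, and in MycCaP-BMP4 replicate 2 Cd163 passed Timd4, at 152 TPM against 77.6 TPM.

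Set side by side, the groups compare macrophages from MycCaP-BMP4 tumours with those from MycCaP tumours. An action of BMP4 on the macrophages cannot be told apart here from other differences between the lines or the gates. On the scale of all RNA, no marker differed between the groups past the test. MycCaP-BMP4 replicate 1 had the lowest level of each of the 10 markers, while replicate 2 ranged from 0.64-fold of the MycCaP mean for Stab1 to 5.10-fold for Cd163. A set of 4, Mrc1, F13a1, Gas6 and Stab1, had both MycCaP-BMP4 values under both MycCaP values, where 29.7% of the 14075 genes tested did so, and no marker had both above, against 28.9%. With edgeR's quasi-likelihood test and Benjamini-Hochberg adjustment, 0 of the 10 passed at 0.05, with 0 at an unadjusted p under 0.05, and 0.00% of all genes passed, with 19.0% at an unadjusted p under 0.05. DESeq2 and limma-voom called 0 of the 10 as well, where DESeq2 called 9.84% of all genes and limma-voom 0.00%. The median log2 fold change of the markers was -0.54, beside -0.03 over all genes and -1.09 over the pan-macrophage genes. It was 0.07 without MycCaP-BMP4 replicate 1 and -1.62 without replicate 2, so the sign depends on which of these 2 libraries is kept.

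**Figure D1:**
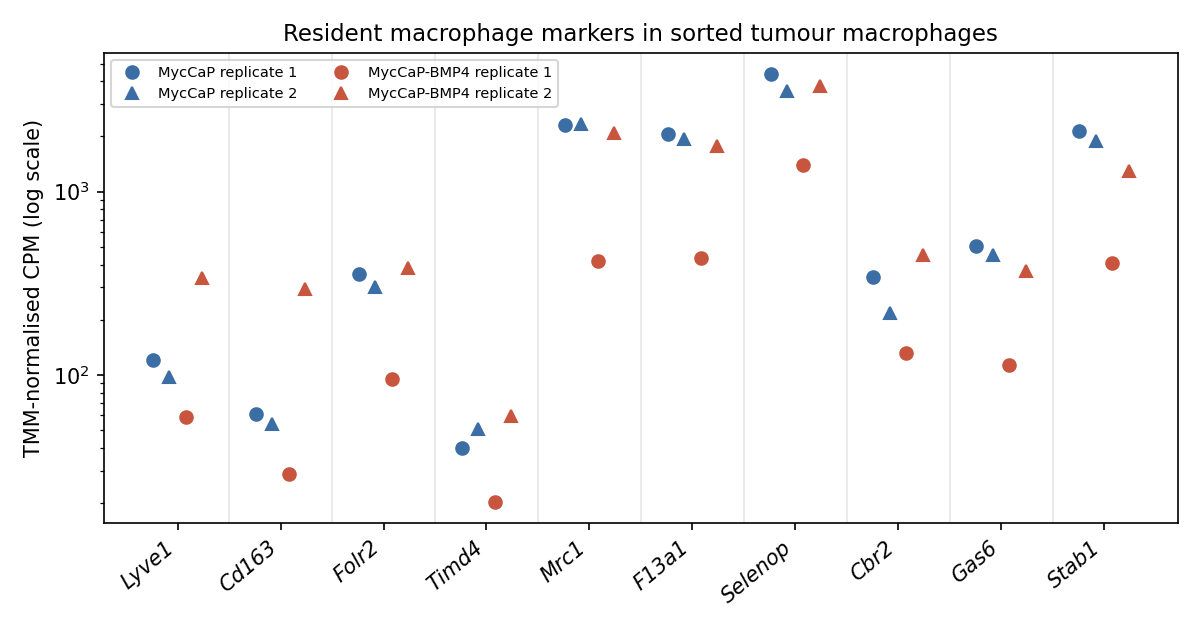
TMM-normalised CPM (log axis) of the 10 markers, 1 point per library, circles for replicate 1 and triangles for replicate 2. For each gene MycCaP-BMP4 replicate 1 is the lowest point, and for Lyve1 and Cd163 replicate 2 stands far above the other 3 libraries.

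Cd163 and Lyve1 had the widest gaps between the MycCaP-BMP4 libraries among the 10 markers, of 10.2-fold and 5.74-fold. Lyve1 (chromosome 7, 110850607 to 110863239 on GRCm38), which encodes a hyaluronan receptor, had 120 and 97.3 CPM in MycCaP and 59.2 and 340 CPM in MycCaP-BMP4. Cd163 (chromosome 6, 124304656 to 124330527), the receptor for haemoglobin bound to haptoglobin, had 61.3 and 53.6 CPM against 28.6 and 293 CPM. In both genes 1 MycCaP-BMP4 library was below and the other above the MycCaP pair, so the groups overlapped. The log2 fold change was 0.88 ± 0.76 (SE, edgeR adjusted p = 0.556) for Lyve1 and 1.49 ± 0.96 (SE, edgeR adjusted p = 0.439) for Cd163. With limma-voom these were 0.43 and 0.71, and with the replicate number as a block 0.39 and 0.68. Without MycCaP-BMP4 replicate 1 these were 1.64 and 2.35 and both passed (edgeR adjusted p = 0.00127 and 9.55e-05), and without replicate 2 they were -0.85 and -0.98 and both passed in the other direction (edgeR adjusted p = 0.0199 and 0.00869). In those fits the spread comes from the MycCaP pair alone, and 7.12% and 38.7% of all genes passed.

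Mrc1 and Stab1 encode large endocytic receptors, for mannose-bearing glycoproteins and for modified lipoproteins and other waste. Mrc1 (chromosome 2, 14229392 to 14332057) had 2312 and 2338 CPM in MycCaP and 416 and 2089 CPM in MycCaP-BMP4. Stab1 (chromosome 14, 31139013 to 31168641) had 2156 and 1890 CPM against 410 and 1302 CPM. Both were thus lower in each MycCaP-BMP4 library, by little in replicate 2 for Mrc1. Their log2 fold changes were -0.89 ± 0.79 and -1.24 ± 0.64 (SE, edgeR adjusted p = 0.560 and 0.346). Stab1 overlaps Nt5dc2 on the opposite strand, which had 958 to 1240 counts a library against 11319 to 49314 for Stab1.

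Timd4 encodes TIM-4, which binds phosphatidylserine on dying cells and is a common marker of long-lived macrophages, and Folr2 encodes folate receptor beta. Timd4 (chromosome 11, 46810800 to 46844332) had 39.8 and 50.5 CPM in MycCaP and 20.3 and 59.6 CPM in MycCaP-BMP4, which overlap. Folr2 (chromosome 7, 101839988 to 101857194) had 355 and 303 CPM against 94.4 and 382 CPM and overlapped too. Folr2 shares its locus with the antisense gene Gm10602, which had 36 to 62 counts a library. The log2 fold changes of Timd4 and Folr2 were -0.18 ± 0.51 and -0.47 ± 0.65 (SE, edgeR adjusted p = 0.869 and 0.712). Without MycCaP-BMP4 replicate 2 both passed, lower, at -1.12 and -1.77 (edgeR adjusted p = 0.00701 and 0.000552), and without replicate 1 neither did.

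Another 3 markers encode secreted proteins: Gas6, the vitamin K dependent ligand that bridges dying cells to the TAM receptor kinases, Selenop, and F13a1, the A subunit of the clotting factor XIII that crosslinks fibrin. Gas6 (chromosome 8, 13465374 to 13494490) had 506 and 450 CPM in MycCaP and 114 and 368 CPM in MycCaP-BMP4. F13a1 (chromosome 13, 36867178 to 37050244) had 2072 and 1943 CPM against 437 and 1764 CPM. Both lay lower in each MycCaP-BMP4 library, whereas Selenop (chromosome 15, 3268547 to 3280508) overlapped, at 4365 and 3550 CPM against 1396 and 3752 CPM. The log2 fold changes of Gas6, F13a1 and Selenop were -0.99 ± 0.58, -0.87 ± 0.71 and -0.62 ± 0.64 (SE, edgeR adjusted p = 0.399, 0.533 and 0.618). Without MycCaP-BMP4 replicate 2 the 3 passed, lower, at -2.04, -2.17 and -1.48, as did Mrc1 at -2.45 and Stab1 at -2.28, in a fit that called 38.7% of all genes. Without replicate 1 none of these 5 passed, at -0.38 for Gas6, -0.19 for F13a1, -0.08 for Selenop, -0.16 for Mrc1 and -0.64 for Stab1. Gas6 overlaps Tmem255b and Selenop overlaps Ccdc152, with at most 5 and 26 counts in a library.

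Cbr2 (chromosome 11, 120729489 to 120732114) encodes a mouse carbonyl reductase that is used as a marker of resident macrophages. It had 340 and 217 CPM in MycCaP and 131 and 452 CPM in MycCaP-BMP4, and the groups overlapped. Its log2 fold change was 0.07 ± 0.62 (SE, edgeR adjusted p = 0.962). The MycCaP pair differed by a factor of 1.57 for this gene, the widest gap between the MycCaP libraries among the 10.

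The ratio of marker RNA to macrophage RNA within a library does not depend on how libraries are scaled to each other or on RNA from other cells that lack both. Each marker was therefore set against the mean log2 level of the 18 pan-macrophage genes of its own library. On that measure both MycCaP-BMP4 values exceeded both MycCaP values for 8 of 10 markers, and for none were they both under. Over all genes tested 70.8% lay higher and 4.07% lower, so the count by itself does not set the markers apart. Among the pan-macrophage genes 4 of 18 lay higher and 6 lower. The markers differed from their MycCaP mean by a median of 0.66 on the log2 scale in replicate 1 and 0.54 in replicate 2, beside 2.27 and 0.46 over all genes tested.

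The size of the difference split the markers. Lyve1, Cd163, Timd4 and Cbr2 lay above each of the 18 pan-macrophage genes in both MycCaP-BMP4 libraries. Of all genes tested, only 19.8% to 24.5% lay under these 4 in replicate 1, and 75.4% to 96.7% in replicate 2. Most genes thus lay higher than these markers in replicate 1. Lyve1 was 2.72-fold and 4.34-fold its MycCaP ratio in replicates 1 and 2, and Cd163 was 2.48-fold and 7.07-fold. Cbr2 was 2.40-fold and 2.30-fold, and Timd4 2.25-fold and 1.84-fold. These 4 had the same direction in both libraries on this measure, although on the scale of all RNA each was below the MycCaP mean in replicate 1 and above it in replicate 2.

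Folr2 and Selenop differed less. Folr2 was 1.43-fold and 1.61-fold its MycCaP ratio, above 17 of the 18 pan-macrophage genes in each library. Selenop was 1.76-fold in replicate 1, above all 18, and 1.32-fold in replicate 2, above 16. Both lay higher in each MycCaP-BMP4 library than in each MycCaP library.

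Like Folr2 in both libraries and Selenop in replicate 2, the remaining 4 markers stayed within the range of the pan-macrophage genes. That range ran from -0.55 to 0.60 in log2 in replicate 1 and from -0.91 to 0.71 in replicate 2. F13a1 was 1.08-fold and 1.21-fold its MycCaP ratio, and Gas6 1.18-fold and 1.06-fold. Mrc1 was 0.888-fold and 1.24-fold, and Stab1 1.01-fold and 0.891-fold. For Mrc1 and Stab1 the groups overlapped.

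**Figure D2:**
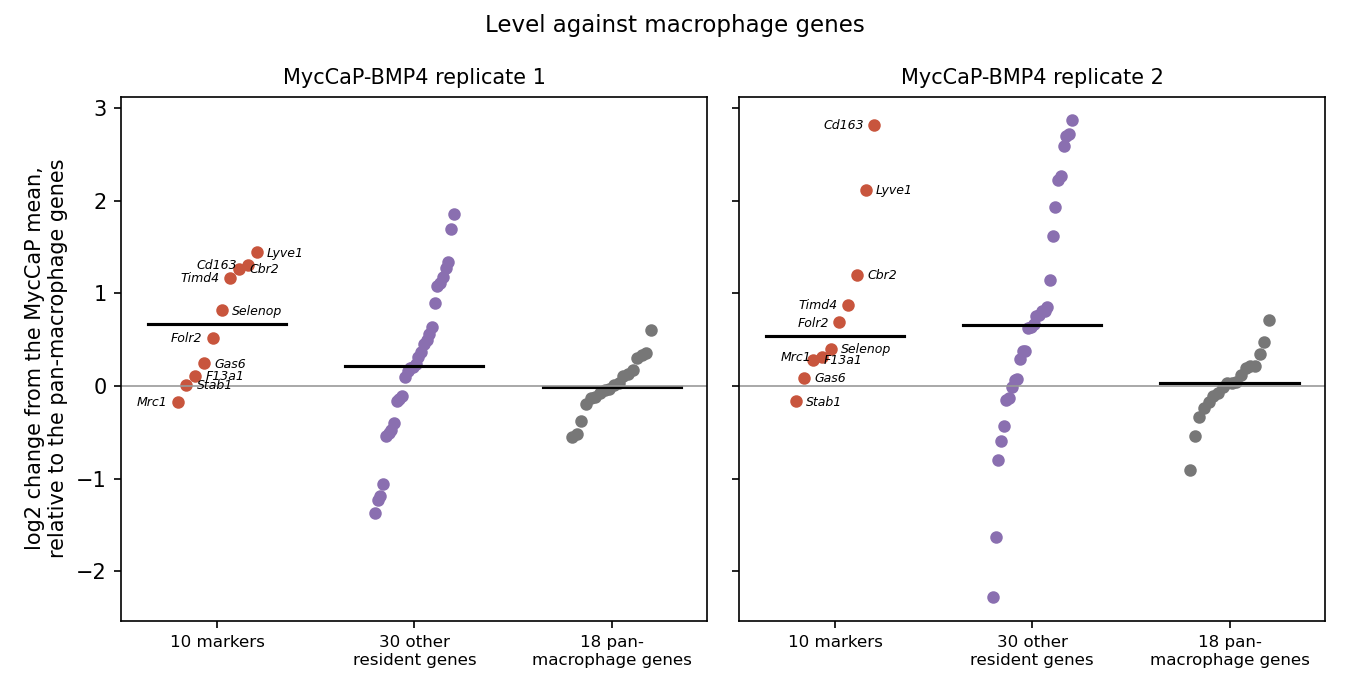
Change in log2 from the MycCaP mean in each MycCaP-BMP4 library, relative to the mean of the 18 pan-macrophage genes, for the 10 markers, 30 other resident macrophage genes and the 18 pan-macrophage genes, 1 point per gene with the median as a line. Lyve1, Cd163, Cbr2 and Timd4 stand above each pan-macrophage gene in both panels, and Mrc1, F13a1, Gas6 and Stab1 lie among them.

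A test on this scale called none of the markers. When the edgeR fit used the pan-macrophage genes, by their median, for scaling, the log2 fold change was 2.24 ± 1.07 for Cd163 and 1.81 ± 1.03 for Lyve1 (SE, edgeR adjusted p = 0.169 and 0.220). It was 1.21 ± 0.97 for Cbr2 and 1.01 ± 1.07 for Timd4 (SE, edgeR adjusted p = 0.341 and 0.463). That scaling moved the median of all genes from -0.03 to 1.63 and called 7.40% of genes, 7.23% higher. On it 8 markers lay higher in each MycCaP-BMP4 library, against 69.3% of genes, and none lower, against 4.06%. With 2 libraries against 2, an exact permutation test of 1 gene's ratio cannot go below a two-sided p of 0.33.

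The same counts can be read without the pan-macrophage list, as counts of 1 marker for every 100 counts of Mrc1 in the same library. Mrc1 was among the markers with a small difference above, so this restates the split and is no further evidence of it. Lyve1 had 5.20 and 4.16 counts per 100 of Mrc1 in MycCaP and 14.2 and 16.3 in MycCaP-BMP4. The 95% exact binomial intervals ran from 3.99 to 5.40 over the MycCaP libraries and from 13.5 to 16.7 over the MycCaP-BMP4 libraries, for counting error only. Cd163 had 2.65 and 2.29 against 6.87 and 14.0, so its ratio also differed between the MycCaP-BMP4 libraries. The Lyve1 ratio differed less between the 2 MycCaP-BMP4 libraries than their Lyve1 levels, which differed 5.74-fold. Its intervals there, 13.5 to 15.0 and 15.9 to 16.7, did not overlap. Against the pan-macrophage genes the 2 libraries lay further apart, at 2.72-fold and 4.34-fold the MycCaP ratio.

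Cbr2 had 14.7 and 9.29 counts per 100 of Mrc1 in MycCaP and 31.6 and 21.6 in MycCaP-BMP4. Timd4 had 1.72 and 2.16 against 4.88 and 2.85, and Folr2 15.4 and 12.96 against 22.7 and 18.3. For these 3 the groups did not overlap, but the gap was narrower than for Lyve1 and Cd163. In its difference relative to the macrophage genes, Mrc1 lay above only 5.43% of genes tested in replicate 1 and 37.4% in replicate 2. Most genes thus stood above their MycCaP ratio to Mrc1 in each library. The share of all genes without overlap in that ratio was not counted. F13a1, at 89.6 and 83.1 against 105 and 84.4, Gas6, at 21.9 and 19.3 against 27.3 and 17.6, and Stab1, at 93.2 and 80.9 against 98.4 and 62.3, overlapped. Selenop also overlapped, with 189 and 152 against 335 and 180.

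**Figure D3:**
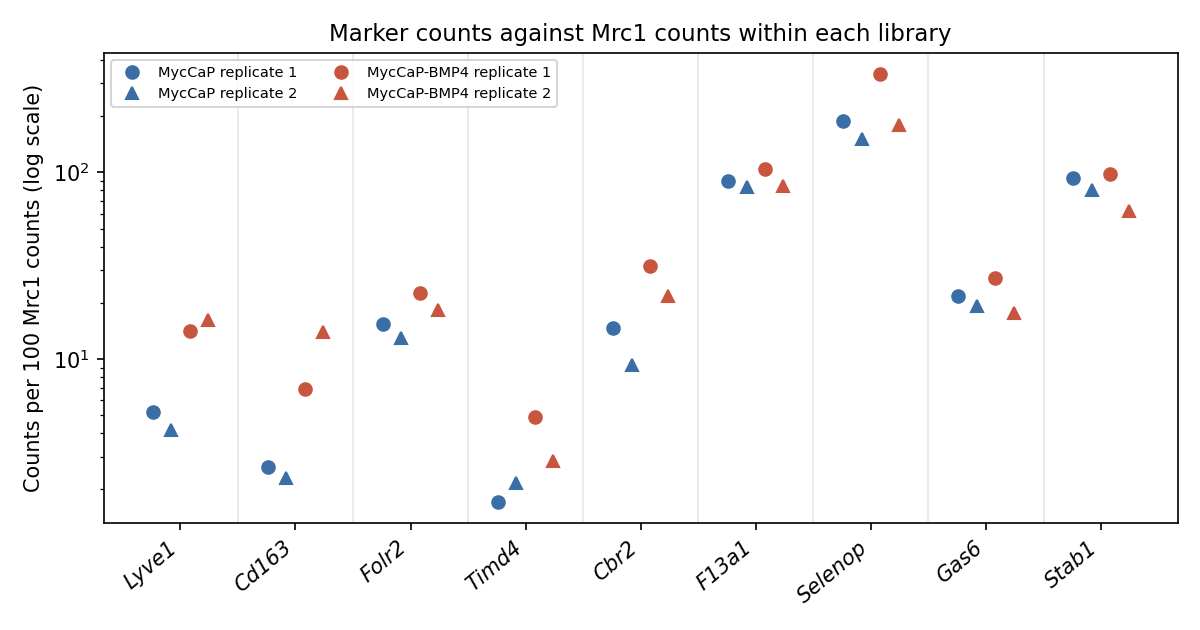
Counts of each of 9 markers per 100 counts of Mrc1 in the same library (log axis), circles for replicate 1 and triangles for replicate 2. Both MycCaP-BMP4 points lie above both MycCaP points for Lyve1, Cd163, Folr2, Timd4 and Cbr2.

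Markers of the other cells that could carry these genes were read in the same libraries. Of 8 lymphatic endothelial genes, Pdpn, Ccl21a and Tbx1 had no count in any library and Prox1 had at most 1, and the list summed to 0.878 to 2.24 CPM, against 59.2 to 340 CPM for Lyve1. Blood endothelial genes (12) summed to 75.3 and 122 CPM in MycCaP and 76.0 and 43.8 CPM in MycCaP-BMP4, and Stab2, of sinusoidal endothelium, had 0.0422 to 0.181 CPM. Platelet genes (7) summed to 3.22 to 9.79 CPM, with Gp6 and Gp1bb at 0, against 437 to 2072 CPM for F13a1. Fibroblast and mural genes (12) summed to 261 and 630 CPM against 506 and 409 CPM. Tumour epithelial genes were highest in MycCaP-BMP4 replicate 1, where the ratios of Selenop, Timd4, Cbr2, Gas6 and Stab1 to the macrophage genes were also the larger of the pair, and the part of tumour RNA in those ratios was not tested. Genes of T and NK cells (11) summed to 87.1 and 80.2 CPM in MycCaP and 16.2 and 46.1 CPM in MycCaP-BMP4. Of these 11, 9 lay under both MycCaP values in each MycCaP-BMP4 library, beside 29.7% of all genes. Their median log2 fold change was -2.87, and none passed edgeR's test (9 at an unadjusted p under 0.05, and 8 called by DESeq2). Over all genes tested 19.0% had an unadjusted p under 0.05 and DESeq2 called 9.84%. Dendritic cell genes (9) summed to 73.9 and 83.7 CPM against 18.7 and 45.5 CPM, neutrophil genes (9) to 75.6 and 72.2 CPM against 53.6 and 67.7 CPM, and eosinophil genes (5) to 8.31 and 7.93 CPM against 1.56 and 8.30 CPM.

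Another 30 genes of resident macrophages were read for the same split. On the scale of all RNA 10 had both MycCaP-BMP4 values under both MycCaP values, beside 29.7% of all genes. None had both above, beside 28.9%. None passed edgeR's test (4 at an unadjusted p under 0.05, and 3 called by DESeq2), and the median log2 fold change was -0.49. Over all genes 19.0% had an unadjusted p under 0.05 and DESeq2 called 9.84%, so these counts do not set the 30 apart. Against the pan-macrophage genes 14 of 30 lay higher in both libraries, a smaller share than the 70.8% of all genes, and 4 lower, against 4.07%. The complement receptor gene Vsig4 stood 1.86 and 2.87 above its MycCaP mean in log2 in replicates 1 and 2, with 20.02 and 17.4 CPM in MycCaP and 13.6 and 98.6 CPM in MycCaP-BMP4. The C-type lectin gene Cd209f, at 6.43 and 4.599 CPM against 2.64 and 15.0 CPM, stood 1.27 and 1.93 above. The ficolin gene Fcna stood 1.34 and 1.62 above, and the scavenger collectin gene Colec12 1.11 and 1.15.

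Other genes of that list had lower values in MycCaP-BMP4. Slc40a1, which encodes the iron exporter ferroportin, had 265 and 286 CPM in MycCaP and 39.2 and 64.3 CPM in MycCaP-BMP4, a log2 fold change of -2.41 (edgeR adjusted p = 0.107), and its difference relative to the macrophage genes was -0.50 and -1.63. Hpgd, which breaks down prostaglandins, had 10.6 and 13.7 CPM against 2.17 and 1.80 CPM (log2 fold change -2.61, edgeR adjusted p = 0.113). Clec4n, a lectin gene, and Igfbp4 had edgeR adjusted p of 0.222 and 0.247, with log2 fold changes of -1.66 and -1.50.

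**Figure D4:**
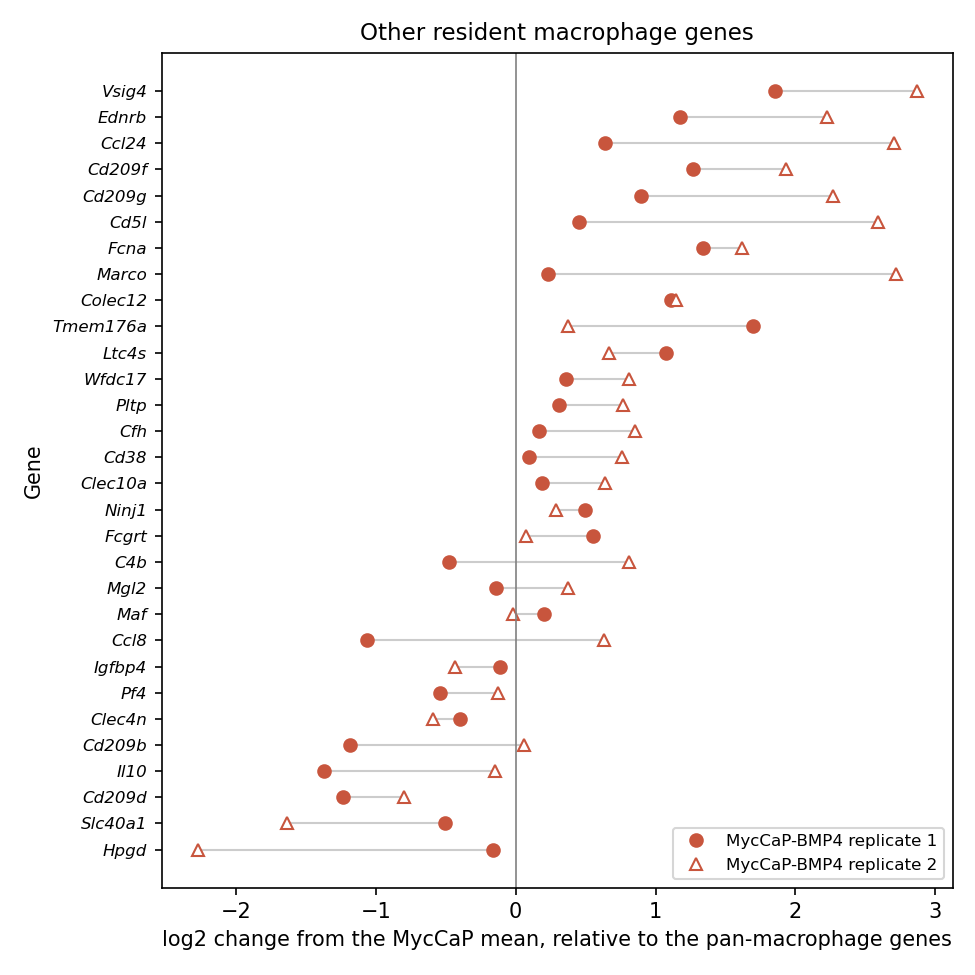
Change in log2 from the MycCaP mean relative to the pan-macrophage genes for 30 other resident macrophage genes, filled circles for MycCaP-BMP4 replicate 1 and open triangles for replicate 2, ordered by the mean of the pair. Vsig4 is at the top at 1.86 and 2.87, and Hpgd at the bottom at -0.16 and -2.27.

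Genes of the pathways in which the markers act did not pass edgeR's test either. DESeq2 called 4 of 18 tested genes for the uptake of dying cells and 2 of 10 for haem. It called 1 of 13 for selenium and 1 of 15 transcription factor genes, beside 9.84% of all genes tested. Of 18 tested genes for the uptake of dying cells, 10 lay lower and 4 higher in both MycCaP-BMP4 libraries, beside 29.7% and 28.9% of all genes. Of these 18, 4 had an unadjusted p under 0.05 by edgeR's test, and the median log2 fold change was -0.88. The Gas6 receptor gene Axl had 511 and 537 CPM in MycCaP and 156 and 253 CPM in MycCaP-BMP4, and the receptor gene Mertk had 127 and 125 CPM against 31.3 and 104 CPM. Mfge8, whose product bridges dying cells to integrins, ran the other way, at 71.6 and 78.3 CPM against 526 and 198 CPM, as did the integrin gene Itgb3 at 9.79 and 11.3 CPM against 114 and 58.2 CPM. Their log2 fold changes were 2.27 and 3.03 (edgeR adjusted p = 0.147 and 0.101), and both passed when scaled on the pan-macrophage genes (edgeR adjusted p = 0.00801 and 0.00748). The levels of Mfge8 and Itgb3 were higher in MycCaP-BMP4 replicate 1, as were those of the tumour epithelial genes, and the part of tumour RNA in them was not tested.

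Cd163 delivers haemoglobin for breakdown. Of 10 genes for haem uptake and breakdown 7 had both MycCaP-BMP4 values under both MycCaP values and none had both above. The median log2 fold change was -0.90. Over all genes tested 29.7% lay lower and 28.9% higher, shares to set beside this list and the 2 that follow. The haem oxygenase gene Hmox1 had 899 and 772 CPM against 145 and 837 CPM, and relative to the pan-macrophage genes it differed by -0.21 and 0.47, where Cd163 differed by 1.31 and 2.82. Of 13 selenium genes, Selenop included, 6 lay lower and 2 higher in both libraries, with a median of -0.29. Lrp8, a receptor gene for selenoprotein P, had 6.34 and 4.94 CPM against 19.5 and 11.7 CPM (edgeR adjusted p = 0.168). Of 15 transcription factor genes of macrophages, 5 lay lower and 3 higher, with a median of -0.62. Maf had 407 and 319 CPM against 83.4 and 258 CPM, and relative to the pan-macrophage genes it differed by 0.20 and -0.02. The BMP target genes Id1 and Id3 were the 2 with the smallest p (edgeR adjusted p = 0.116 and 0.173). Id1 had 9.97 and 8.40 CPM in MycCaP and 160 and 52.9 CPM in MycCaP-BMP4, and Id3 had 67.1 and 59.4 CPM against 167 and 106 CPM. Id1 passed when scaled on the pan-macrophage genes (edgeR adjusted p = 0.00275), and Id3 did not (edgeR adjusted p = 0.0720). Like Bmp4 and the tumour epithelial genes, both were highest in replicate 1, and the part of tumour RNA in them was not tested.

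Genes of newly arrived monocytes and of antigen presentation were read as a contrast to the resident markers. Of 14 monocyte genes 8 lay lower and 2 higher in both MycCaP-BMP4 libraries, beside 29.7% and 28.9% of all genes. The log2 fold changes of the 14 had a median of -0.85. By edgeR's test 9 had an unadjusted p under 0.05, beside 19.0% of all genes. Ms4a4c and Plac8 had the smallest p, at 64.0 and 68.6 CPM against 8.79 and 15.1 CPM for Ms4a4c and 140 and 62.6 CPM against 9.23 and 14.3 CPM for Plac8 (edgeR adjusted p = 0.101 and 0.112). Others in the list were higher in MycCaP-BMP4 at an unadjusted p under 0.05. The fibronectin gene Fn1 had 1413 and 1988 CPM against 5399 and 4414 CPM (edgeR adjusted p = 0.219), and S100a4 had 78.3 and 59.2 CPM against 115 and 118 CPM (edgeR adjusted p = 0.227). Chil3, which encodes a chitinase-like protein, had 11.5 and 6.46 CPM against 8.25 and 215 CPM, where the groups overlapped (edgeR adjusted p = 0.244). DESeq2 called 5 of the 14, beside 9.84% of all genes. Ccr2, the receptor gene that brings monocytes into tissue, had 115 and 117 CPM against 27.2 and 108 CPM. Among 7 genes of MHC class II, 6 had lower values in each MycCaP-BMP4 library, and the median was -1.08. Relative to the pan-macrophage genes, 6 of the 14 monocyte genes and 1 of the 7 MHC class II genes lay higher in each MycCaP-BMP4 library and 2 of each list lower, beside 70.8% and 4.07% of all genes. On that measure Fn1 differed by 3.998 and 1.86, S100a4 by 3.06 and 1.26, Chil3 by 2.25 and 5.11 and Ccr2 by 0.22 and 0.37, where Lyve1 differed by 1.44 and 2.12. Scaled on the pan-macrophage genes, Fn1 and Chil3 passed edgeR's test (adjusted p = 0.00410 and 0.0220). The differences of Fn1 and S100a4 were larger in replicate 1, where the tumour epithelial genes were highest. The part of tumour RNA in Fn1 and S100a4 was not tested.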

How the data were processed

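Macrophage RNA was measured in 4 libraries, 2 per tumour line. The deposited values are raw counts of reads per Ensembl gene, and the submitters' processing notes name HTSeq, Bowtie2 2.2.3, RSEM and STAR 2.6.0b, with GRCm38 (mm10) as build. For the annotation release and the strand setting nothing is given in the sources, so reads shared with overlapping genes are uncertain. Lines without a gene entered neither library sizes nor tests: reads outside genes made up 3.37% to 6.03% of all reads, ambiguous reads 2.70% to 2.90% and reads with several alignments 8.01% to 10.6%. Symbols, positions and merged exon lengths came from GENCODE M21 (GRCm38), which matched 37607 of 39179 identifiers. TPM was computed from counts and those lengths.

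Counts were filtered with filterByExpr (14075 genes), scaled with TMM and tested with edgeR 4.0.16 (quasi-likelihood F test, two-sided, Benjamini-Hochberg over all genes, threshold 0.05), in R 4.3.3. The script was tested on simulated data. Fold changes are MycCaP-BMP4 over MycCaP, and the SE is the absolute log2 fold change over the square root of F. Replicates differed by far more than sampling noise (chi-square per degree of freedom 46.4 and 303), so no library was treated as a copy of another, which does not show that they came from separate mice. The 10 markers and the other lists were chosen with earlier results of these data known. Named genes are the markers, the sort markers and, in each list, up to 4 genes with the smallest p and those that define its cell type. Vsig4, Cd209f, Fcna, Colec12, Mertk, Hmox1, Maf, Ccr2, Fn1, S100a4, Chil3 and, in the closing section, Ccl24, Cd5l, Marco and Ednrb were named after their values were seen. A gene of the platelet list is not reported here. The 5 genes nearest the markers' median profile were also named. Motifs were searched on both strands of RefSeq promoters (GRCm38.p6). Alternatives were DESeq2 1.42.0 and its size factors, limma 3.58.1 (voom), library size alone, scaling on pan-macrophage genes, other filters, the replicate number as a block, and each library left out.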

Additional observations from a re-analysis of the deposited data

How the results depend on the processing

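The count of markers past the threshold was 0 in the reported fit and under each alternative that kept all 4 libraries. With 1 library left out it ranged from 0 to 10: 2 without MycCaP-BMP4 replicate 1 and 10, all lower, without replicate 2, in fits that called 7.12% and 38.7% of all genes. The count of markers lower in both MycCaP-BMP4 libraries was 4, 0 when scaled on the pan-macrophage genes, and 4 to 10 with 1 library left out. The count higher in both was 0, 8 when scaled on those genes, and 0 to 5 with 1 library left out. Where a MycCaP-BMP4 library was left out, these counts (4 and 10 lower, 5 and 0 higher) compare the 1 that remained with MycCaP. The markers' median log2 fold change was 0.61 when scaled on those genes and -1.62 to 0.07 with 1 library left out. That scaling turned 6 markers positive: Folr2 0.60, Timd4 1.01, Mrc1 0.083, F13a1 0.19, Selenop 0.62 and Gas6 0.17. Cbr2, 0.07 in the reported fit, was -0.13 with limma-voom, -0.23 without MycCaP replicate 2 and -1.06 without MycCaP-BMP4 replicate 2. Timd4 was 0.000566 without MycCaP replicate 2. Without MycCaP-BMP4 replicate 1, Lyve1 was 1.64, Cd163 2.35, Cbr2 0.70, Folr2 0.21 and Timd4 0.40. Without MycCaP-BMP4 replicate 2, Lyve1 was -0.85, Cd163 -0.98, Folr2 -1.77 and Timd4 -1.12. The cause of these shifts was not tested. Over all genes the reported fit called 0, library size alone 65, the fit without a filter 1109 and DESeq2 1385.

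With the replicate number as a block, Cbr2 was -0.16, the markers' median was -0.78, no marker was called, and 2 genes in all were. Same-numbered libraries correlated at r = -0.127 in their deviations from the group means across 14075 genes, and the labels do not say that a number marks a pairing. A crossed pairing, chosen after the data were seen, called 689 genes and none of the markers. The lowest count of a marker in a library was 562, and each group had 2 libraries.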

Other observations

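Several other resident macrophage genes were high in MycCaP-BMP4 replicate 2 alone on the scale of all RNA. Marco, a scavenger receptor gene, had 13.5 and 7.51 CPM in MycCaP and 2.39 and 48.1 CPM in MycCaP-BMP4. Cd5l, which encodes a secreted scavenger protein of tissue macrophages, had 8.39 and 5.78 CPM against 1.92 and 30.4 CPM. The chemokine gene Ccl24 had 25.05 and 14.4 CPM against 5.97 and 89.4 CPM. The endothelin receptor gene Ednrb had 58.1 and 65.5 CPM against 28.1 and 209 CPM. None of these passed edgeR's test (adjusted p = 0.585, 0.583, 0.552 and 0.568), and all 4 genes have the order of libraries seen for Cd163, with MycCaP-BMP4 replicate 1 lowest and replicate 2 highest.

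The 5 genes outside the set whose centred log2 CPM profile lay nearest to the markers' median profile over the 4 libraries, out of 9110 genes with a mean of at least 10 CPM, were Nrros, Zfp704, Kctd12, Ly9 and Sh3tc1, with Euclidean distances of 0.0499 to 0.0988. Nrros, a gene of myeloid cells, had 270 and 242 CPM in MycCaP and 71.7 and 275 CPM in MycCaP-BMP4. With 4 libraries such a likeness is a description only.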
